A study of Rattus norvegicus with 22 samples.

Results

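The comparison described here is the change of the injury effect between days: for every gene, the difference between TBI and sham at day 1 minus the difference between TBI and sham at day 14. It was computed for the genes with enough counts to test, 12875 of the 17172 genes in the table, and a positive value means that TBI raised the gene more, or lowered it less, at day 1 than at day 14. The counts came from bulk RNA-seq of the ipsilateral hippocampus of adult male Sprague-Dawley rats. Injured rats received a moderate lateral fluid percussion injury, in which a pulse of fluid strikes the dura through a craniectomy over the right hemisphere. Sham rats underwent the same anesthesia and surgery, craniectomy included, without the pulse. The groups were Sham day 1 (n = 2), TBI day 1 (n = 4), Sham day 14 (n = 4) and TBI day 14 (n = 4), so sham surgery and anesthesia are shared by every rat and the day 1 effect rests on 2 control libraries. In bulk tissue, fewer cells of a type and less RNA per cell cannot be told apart.

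A blow to the brain is followed by phases that overlap. Injured cells release signals that within hours switch on cytokines, acute-phase proteins and immediate early genes, blood-borne cells enter, and astrocytes become reactive, enlarging and making intermediate filaments and secreted inhibitors of proteases. Microglia, the resident macrophages, leave their surveying state, lose markers of that state such as P2ry12, and take up debris, which brings complement, antigen presentation and lysosomal genes with it. Neurons and myelinating oligodendrocytes can lose RNA through death or through lower transcription, and later recover it. A contrast between days separates the changes that come back to the sham level from those that persist, grow or turn round.

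Total counts ran from 15065540 to 23743703 per library, and replicate libraries differed by more than counting noise in every group. The summed level of 19 markers of hippocampal excitatory neurons in CPM, the counts scaled to library size, was 2154 to 4249 in TBI day 1 against 5567 to 5843 in its shams. At day 14 it was 5401 to 6315 after TBI against 6255 to 7265. Sham day 1 replicate 1 and TBI day 14 replicates 2 and 3 stood apart in genes of the choroid plexus, the secretory tissue that lines the ventricle beside the hippocampus. Transthyretin (Ttr), its most abundant secreted product, had 7579, 1407 and 7036 CPM in these libraries and 3.23 to 11.5 CPM in the other 11. Since they fall in 1 sham and 1 TBI group of opposite days, the main results below are also given without them, and leaving them out leaves a single Sham day 1 library.

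The injury effect differed between days in 474 genes at an adjusted p under 0.05 (edgeR quasi-likelihood test, Benjamini-Hochberg over all genes tested). Of these, 288 were higher (2.24% of the genes tested), with a median difference of 1.82 on the log2 scale, and 186 were lower (1.44%), with a median of -1.58. TBI raised 1437 genes (11.2%) and lowered 1021 (7.93%) at day 1. At day 14 it raised 524 (4.07%) and lowered 47 (0.365%). The median standard error (SE) of a difference between days was 0.296 and the median half-width of its unadjusted 95% interval was 0.63, and a call after adjustment over all genes needed a difference larger, for its SE, than that interval. Among the genes with a higher difference, 268 (93.1%) were also higher in TBI day 1 than in TBI day 14 by the same test, and in 35 (12.2%) the sham groups differed the opposite way. Among those with a lower difference these were 164 (88.2%) and 58 (31.2%).

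**Figure D1:**
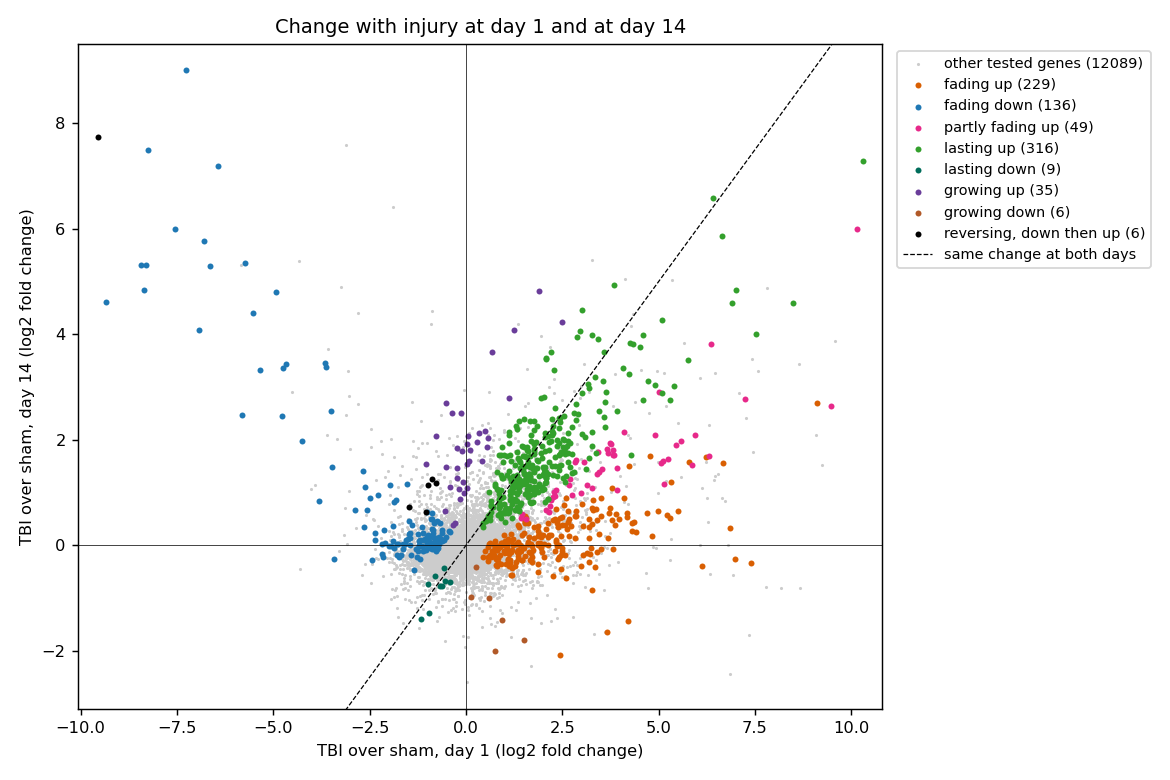
Log2 fold change of TBI over sham at day 1 (x axis) and at day 14 (y axis), 1 point per gene tested, coloured by pattern, with the dashed line where both days are equal. The 229 genes that rose at day 1 and faded lie along the horizontal zero line to the right, with a median day 14 value of 0.02, while the 316 lasting genes lie near the dashed line, with medians of 1.72 and 1.45.

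Fading was the most frequent pattern among the genes whose effect differed. A gene is called fading here if it was called at day 1, not at day 14, and its difference was called in the direction of day 1. Small day 14 values in this class follow in part from that definition. There were 229 fading genes that rose at day 1. On the log2 scale their median was 1.88 at that day and 0.02 at day 14, and in 79.0% of them the day 14 value was under 25% of the day 1 value. The 136 fading genes that fell at day 1 had medians of -1.32 and 0.13. In 61.8% of them the day 14 value was under 25% of the day 1 value in size, and 24.3% kept the sign of day 1 at day 14. Of the 136, 16 were choroid plexus markers, whose differences rested on the 3 libraries high in these genes. Another 49 genes were partly fading, raised at both days but less at day 14 (medians 3.66 and 1.55). Lasting genes, called at both days the same way with no call for the difference, numbered 316 that rose and 9 that fell (medians -0.66 and -0.72). Growing genes were called at day 14 with a called difference toward that day, and were not called the opposite way at day 1. They numbered 35 that rose (medians -0.04 and 1.82) and 6 that fell (medians 0.67 and -1.20). Among the 6 were Alox5, Calca, Slc38a4, Ptprn and Ctgf. At day 1, 0 of these 6 had a value below sham, so their fall was not a day 1 fall that deepened. Reversing genes were few: 6 were lowered at day 1 and raised at day 14, and 0 were raised and then lowered.

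Being called at 1 day alone does not settle recovery. Of the 1437 genes raised at day 1, 840 (58.5%) were called at that day alone while their difference between days was not called. Their medians were 1.04 at day 1 and 0.19 at day 14, with a median difference of 0.81 against a median interval half-width of 0.70, and 78.8% kept the sign of day 1 at day 14. Of the 1021 genes lowered at day 1, 870 (85.2%) were in the same position, with medians of -0.84 and -0.13. For these genes a return to the sham level was not shown by the test of the difference itself.

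Acute inflammatory and wound genes were among the largest positive differences. The interleukin gene Il1b had 2.77 to 9.09 CPM in TBI day 1, at most 0.0539 CPM in Sham day 1, 0.162 to 0.328 CPM in Sham day 14 and 0.497 to 0.845 CPM in TBI day 14. Its libraries of TBI day 14 still lay above all shams, but the day 14 change of 1.57 ± 0.47 (SE) was not called, while that of day 1 was 6.67 ± 0.71. The difference was 5.10 ± 0.90 (edgeR, adjusted p = 0.0081), and 4.86 without the 3 libraries high in choroid plexus genes (adjusted p = 0.0727). Tnf, the tumor necrosis factor gene, changed by 2.83 and 0.13, and without Sham day 1 replicate 2 its difference was not called (adjusted p = 0.0519).

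Ccl2, the chemokine that draws monocytes from the blood, had 43.2 to 181 CPM in TBI day 1 and at most 0.459 CPM in any sham library. In TBI day 14 it had 2.85, 0.469, 0.596 and 2.43 CPM, above the 4 sham libraries of that day, and the difference between days was 6.41 ± 1.66 (edgeR, adjusted p = 0.0455). That call was lost when any 1 of 10 libraries was left out, with adjusted p from 0.0508 to 0.153. Clcf1, a cytokine that signals through gp130, differed by 4.85 ± 0.77 and Cyr61, a secreted matrix protein, by 5.66 ± 0.78. In both, the shams moved too: Cyr61 had 1.56 and 1.94 CPM in Sham day 1 and 3.14 to 16.4 CPM in Sham day 14. RGD1565374, a locus named by its identifier, differed by 6.54 with few counts. Over the list of cytokines and chemokines, 18 of 26 genes tested rose and 3 fell at day 1, 6 rose at day 14, and the difference was higher in 5 and lower in 3. Among those lower was Il1a, which fell at day 1. The list's medians were 2.83 at day 1 and 1.28 at day 14, beside -0.02 and -0.03 over all genes tested, and without the 3 libraries its calls in the difference were 1 higher and 0 lower.

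Of the genes that act downstream of gp130 and NF-kappaB, some were raised at each day and some had a larger effect at day 1. Of 23 tested, 14 rose at day 1 and 11 at day 14, 7 had a higher difference and 0 a lower one, and 7 were lasting. Stat3, the transcription factor that carries gp130 signals to the nucleus, had 234 to 379 CPM in TBI day 1, 55.7 and 68.9 CPM in Sham day 1, 53.1 to 61.7 CPM in Sham day 14 and 81.7 to 106 CPM in TBI day 14. All TBI libraries lay above all shams at both days. It changed by 2.16 ± 0.21 and later by 0.63 ± 0.15, a difference of 1.53 ± 0.25 (edgeR, adjusted p = 0.00483), and the day 14 call was lost when any 1 of 6 day 14 libraries was left out (adjusted p 0.065 to 0.12). Immediate early genes, the transcription factors that respond within minutes to hours, split: 11 of 25 rose and 5 fell at day 1, 3 rose at day 14, and the difference was higher in 5 and lower in 1. Fos, the best known of them, changed by 2.03 ± 0.32 at day 1 and 0.77 ± 0.24 at day 14, and its difference of 1.26 ± 0.39 was not called (edgeR, adjusted p = 0.0838).

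Reactive astrocyte genes formed the list with the largest share of called differences among those raised at day 1. Of 23 tested, 19 rose and 1 fell at day 1, 11 rose at day 14, and 11 had a higher difference and 0 a lower one, of which 5 were fading and 6 partly fading. The median fell from 3.10 at day 1 to 0.99 at day 14, with a median difference of 1.82. Without the 3 libraries, 13 differences were higher and 1 lower. The mean log2 level of the list, set against the mean of Sham day 14, was 3.26 to 3.55 in TBI day 1 and 0.83 to 1.34 in TBI day 14, above the 6 sham libraries (-0.36 to 0.55).

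Timp1, the inhibitor of matrix metalloproteinases, had 224, 288, 228 and 246 CPM in TBI day 1, 4.96 and 1.34 CPM in Sham day 1, 2.52 to 4.03 CPM in Sham day 14 and 6.8 to 12.5 CPM in TBI day 14. The 4 groups did not overlap other than the shams with each other. Its change went from 6.31 ± 0.48 to 1.69 ± 0.31, a difference of 4.62 ± 0.52 (edgeR, adjusted p = 0.000413). Timp1 lies within Syn1, a neuronal gene whose change at day 1 was -0.45, and the strand setting of the counting is not given in the sources used here. Serpina3n, an acute-phase protease inhibitor, had 195 to 382 CPM in TBI day 1, 0.633 to 1.13 CPM in TBI day 14 and at most 0.485 CPM in any sham. It changed by 9.47 ± 0.43 and 2.65 ± 0.50. Lcn2, a secreted carrier of iron-binding siderophores, had 310 to 637 CPM in TBI day 1 and 2.90 to 10.2 CPM in TBI day 14, against 0.379 to 4.90 CPM in the shams, and differed by 4.48 ± 0.74. In these genes the day 14 level was a small part of the day 1 level and still above the shams of that day. Nes, the intermediate filament of progenitors and reactive astrocytes, changed by 3.52 ± 0.39 and later by -0.07 ± 0.27. It had 5.81 to 6.85 CPM in TBI day 14, inside the 4.92 to 8.91 CPM of Sham day 14. Its shams moved too: Sham day 1 was 1.46 lower (log2) than Sham day 14 (edgeR, adjusted p = 0.0144). TBI day 1 was 2.12 higher than TBI day 14, so the Nes difference of 3.59 rests in part on the low day 1 shams. Gfap and Vim, the filaments that define reactive astrocytes, were lasting, with Gfap at 3.10 and 2.06 and Vim at 3.02 and 2.12, both named after their values were seen.

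S100a10, a partner of annexin at the cell membrane, gave the smallest adjusted p of all. It had 232, 249, 242 and 311 CPM in TBI day 1, 21.9 and 18.6 CPM in Sham day 1, 10.8 to 18.0 CPM in Sham day 14 and 14.1 to 16.2 CPM in TBI day 14. TBI day 1 lay apart and TBI day 14 sat within its shams. It changed by 3.68 ± 0.22 and then by 0.13 ± 0.15, and the difference was 3.54 ± 0.26 (edgeR, adjusted p = 9.64e-06). Matrix and protease genes followed in number, with 14 of 37 raised and 3 lowered at day 1, 6 raised at day 14, and 7 higher and 2 lower differences. Fibronectin (Fn1), a major protein of the provisional matrix, had 381 to 634 CPM in TBI day 1, 56.5 and 104 CPM in Sham day 1, 70.4 to 104 CPM in Sham day 14 and 40.8 to 73.5 CPM in TBI day 14. It changed by 2.59 ± 0.31 and -0.61 ± 0.22, a difference of 3.20 ± 0.37 (edgeR, adjusted p = 0.000529). Of 29 endothelial and adhesion genes, 8 rose and 2 fell at day 1, 2 rose and 1 fell at day 14, and 3 had higher differences and 1 a lower one. Those 3 were Vwf, the clotting protein stored in endothelium, Angpt2, which loosens vessels, and Sele, which holds leukocytes to the wall. Vwf had 192 to 434 CPM in TBI day 1 and 59.2 to 105 CPM in the 6 shams, and its TBI day 14 libraries, at 59.7 to 83.5 CPM, overlapped the shams.

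**Figure D2:**
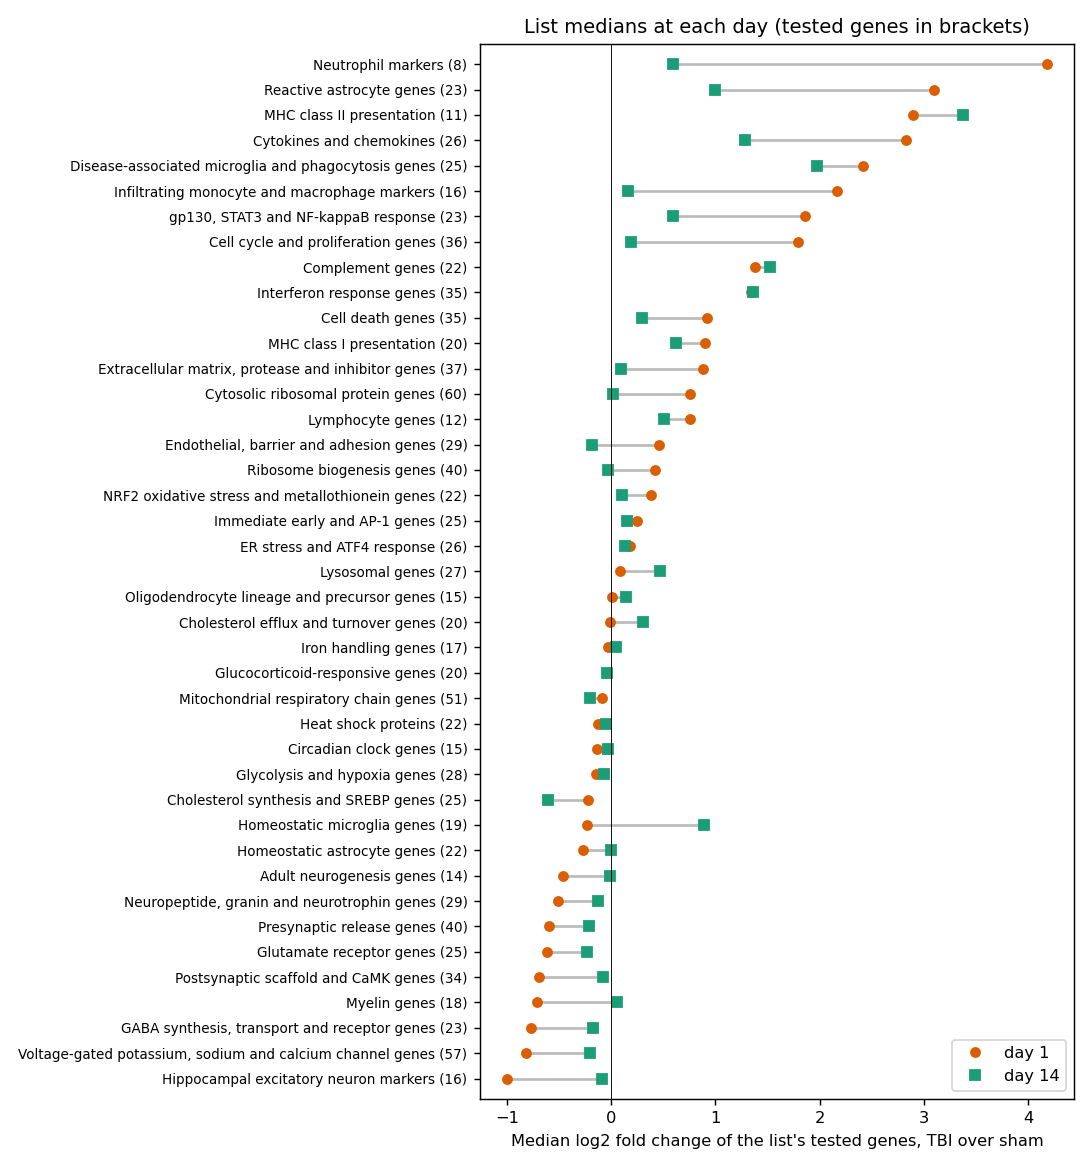
Median log2 fold change of TBI over sham for the tested genes of each list, at day 1 (circles) and day 14 (squares), with the number of genes in brackets. The reactive astrocyte median moved from 3.10 to 0.99 and that of cell cycle genes from 1.79 to 0.19, the interferon median stayed at 1.34 and 1.37, and homeostatic microglia genes went from -0.23 to 0.89.

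Most proliferation genes tested were raised at day 1 and few at day 14. Of 36 tested, 27 rose and 0 fell at day 1, 1 rose at day 14, and 8 had a higher difference and 0 a lower one, all 8 of them fading. The medians were 1.79 and 0.19, and 32 of the 36 differences were positive. Mcm5, a subunit of the helicase that opens DNA for replication, had 22.1, 10.2, 26.5 and 31.6 CPM in TBI day 1 and 0.721 to 1.63 CPM in the 6 shams. Its TBI day 14 libraries, at 1.04 to 2.43 CPM, overlapped their shams, and the difference was 3.92 ± 0.65 (edgeR, adjusted p = 0.00595). Mcm2, Mcm3 and Mcm6 of the same complex were fading as well, of which Mcm3 was not called without Sham day 1 replicate 2 (adjusted p = 0.0897). The list's level spread widely in TBI day 1, from 0.57 to 2.02 above Sham day 14, and without the 3 libraries 4 differences were higher. The proliferation marker Mki67, named after its values were seen, changed by 2.13 and -0.10, and its difference of 2.23 was not called (edgeR, adjusted p = 0.0672).

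Some genes of protein synthesis rose at day 1. Of 40 genes of ribosome biogenesis, 14 rose at day 1 and 0 at day 14, and 5 had higher differences. Among these, Ftsj3, an rRNA-processing factor, had 84.4 to 96.3 CPM in TBI day 1 and 45.7 to 58.8 CPM in the other 10 libraries, with no overlap. Its difference was 0.86 ± 0.17 (edgeR, adjusted p = 0.0119), and without the 3 libraries no gene of the list passed, with Ftsj3 at 0.71 (adjusted p = 0.116). Of 60 cytosolic ribosomal protein genes, 32 rose at day 1, 0 at day 14, and 58 differences were positive with a median of 0.63, but 1 passed. That gene, Rps2, had 33.4 to 76.7 CPM in TBI day 1, 25.9 and 14.4 CPM in Sham day 1, 66.8 to 90.4 CPM in Sham day 14 and 46.8 to 86.6 CPM in TBI day 14. The day 1 rise was thus measured against shams that were themselves 2.03 lower (log2) than those of day 14, and its call was lost when any 1 of 9 libraries was left out, with adjusted p from 0.0502 to 0.2. Ribosomal protein genes have near-identical copies in the genome, so how reads were shared among them is uncertain.

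Of 35 cell death genes, 16 rose and 1 fell at day 1, 9 rose at day 14, and 6 had higher differences, 4 partly fading and 2 fading (2 higher without the 3 libraries). Ripk3 and Casp4, which act in necroptosis and in inflammatory cell death, were partly fading, and both lost the call without Sham day 1 replicate 2 (adjusted p 0.0564 and 0.0993). Capn2, a calcium-activated protease, changed by 0.92 and 0.01. Of 22 genes of the oxidative stress response, 8 rose at day 1 and 1 at day 14, with 3 higher differences, Mt1a, Mt2A and Hmox1. Hmox1, which breaks down heme, had 67.9 to 162 CPM in TBI day 1, 22.9 to 30.5 CPM in TBI day 14 and 5.99 to 9.11 CPM in the shams, and its 3 levels did not overlap. Its difference of 1.79 ± 0.39 was not called without Sham day 1 replicate 2 (adjusted p = 0.113). Of 22 heat shock genes, 5 rose at day 1 and 1 difference was called, that of Hspb1, a small chaperone that is abundant in reactive astrocytes. Hspb1 had 448 to 550 CPM in TBI day 1, 27.8 to 47.5 CPM in TBI day 14 and 5.44 to 16.8 CPM in the shams, and differed by 4.34 ± 0.41 (edgeR, adjusted p = 0.000138).

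The promoter of Hspb1 is shown because it was the only heat shock gene whose effect differed and its window holds a pair of matches to the heat shock element GAANNTTC. The window, here and for the other promoters, was 250 bases before to 50 after the RefSeq start in build GRCr8, of which 80 bases are printed 5′ to 3′ on the gene's strand with the matches in capitals (chr12:26432367-26432446, minus strand).
Hspb1: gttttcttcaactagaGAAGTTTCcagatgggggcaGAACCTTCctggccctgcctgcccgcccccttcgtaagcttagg
Of the 17 heat shock genes with a promoter in the table, 10 (58.8%) held this motif on either strand, beside 5.77% of the 9597 promoters of genes tested. The motif was thus also in windows of heat shock genes whose effect did not differ.

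The ER stress list had 5 of 26 genes raised and 1 lowered at day 1, glycolysis and hypoxia genes 3 of 28 raised and 2 lowered, and mitochondrial respiratory chain genes 0 of 51 raised and 2 lowered, with no called difference in these 3 lists. Over all genes tested, 11.2% were raised and 7.93% lowered at day 1. Of 17 iron genes, 2 had a higher and 1 a lower difference. The lower one, Hfe, was highest in the 3 libraries high in choroid plexus genes (8.89, 6.03 and 11.8 CPM), against 1.09 to 4.33 CPM in the others. Tfrc, the transferrin receptor, changed by -0.40 and -0.83. Bax, which opens the outer mitochondrial membrane, changed by 0.59 and 0.11.

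Many microglial and phagocytic genes were raised at both days. Of 25 disease-associated microglia and phagocytosis genes, 19 rose and 1 fell at day 1, 20 rose at day 14, and 14 were lasting, with medians of 2.41 and 1.97. The difference was higher in 4 and lower in 2. Clec7a, a receptor for fungal glucans that phagocytic microglia induce, had 16.4, 32.8, 36.5 and 27.8 CPM in TBI day 1, 13.3, 6.03, 8.10 and 25.4 CPM in TBI day 14 and at most 0.431 CPM in the shams. All TBI libraries lay far above all shams, and the days overlapped. It changed by 6.65 ± 0.75 and 5.88 ± 0.57, a difference of 0.77 ± 1.07 whose 95% interval ran from -1.51 to 3.06. Tyrobp, the adaptor through which many such receptors signal, was measured more closely, with 73.8 to 116 CPM in TBI day 1, 58.7 to 71.2 CPM in TBI day 14 and 13.4 to 22.4 CPM in the shams. It changed by 2.36 ± 0.23 and 2.00 ± 0.18, and the interval of the difference was -0.22 to 0.94.

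Lasting does not mean equal. The inhibitory receptor Lilrb4 was called at both days and had 50.6 to 97.3 CPM in TBI day 1 and 2.05 to 10.1 CPM in TBI day 14, with no overlap, while its difference of 3.89 ± 1.32 was not called (edgeR, adjusted p = 0.118). Mmp12, the macrophage elastase, was at 0 counts in all 6 shams and had 6.02, 10.2, 10.5 and 6.22 CPM in TBI day 1 and 0.398, 0.527, 0.0994 and 3.01 CPM in TBI day 14, so no fold is given. Clec12a (5.08 and 4.28), the scavenger receptor Msr1 (7.52 and 4.00) and the potassium channel Kcnn4 (4.60 and 3.99) were the other lasting genes with the largest changes. Spp1, a secreted phosphoprotein of activated phagocytes, was partly fading, from 845 to 1222 CPM in TBI day 1 to 40.0 to 183 CPM in TBI day 14, against 0.83 to 2.29 CPM in the shams. Its difference of 4.15 ± 0.79 was not called without Sham day 1 replicate 2 (adjusted p = 0.0558). Nlrp3, the inflammasome sensor, changed by 1.38 and 1.63, and Il18, the cytokine that inflammasomes mature, by 1.39 and 1.04. Without Sham day 1 replicate 2 the day 1 change of Nlrp3 was not called (adjusted p = 0.102).

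Complement, antigen presentation and interferon genes were raised in like numbers at both days. Of 22 complement genes, 13 rose at day 1 and 15 at day 14, 10 were lasting, and 1 difference was higher and 1 lower. Of 20 MHC class I genes, 10 rose at day 1, 8 at day 14 and 7 were lasting. Of 11 MHC class II genes, 8 rose at day 1 and 10 at day 14, 7 were lasting, and the median was 2.89 at day 1 and 3.37 at day 14. Its median difference of -0.93 was 0.29 without the 3 libraries and 0.45 without Sham day 1 replicate 1. The RT1 genes among both are near copies of each other, which makes their separate counts uncertain. Of 35 interferon response genes, 18 rose at day 1 and 20 at day 14, 10 were lasting, and 1 difference was higher. The medians of the interferon list, 1.34 and 1.37, were close, but its median difference ran from -0.39 to 0.28 over 22 alternative settings and changed sign in 3. Irf8, a transcription factor of microglia and macrophages, changed by 1.51 ± 0.28 and 2.41 ± 0.23, with 14.3 to 21.4 CPM in TBI day 1, 24.7 to 45.7 CPM in TBI day 14 and 4.93 to 7.81 CPM in the shams. Its TBI day 14 libraries all lay above those of TBI day 1, and the difference of -0.89 was not called (edgeR, adjusted p = 0.166).

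Promoters of lasting interferon genes are shown because these genes were called at both days, and the 5 were chosen after their values were seen. In each the capitals mark GAAA, any 2 bases and GAAA again, the core of the element bound by interferon-regulated factors, or its reverse complement. Oas1a and Oasl2, of the oligoadenylate synthetase family that senses viral RNA, changed by 1.62 and 1.79 and by 1.47 and 1.43. Gbp5, Igtp and Irgm, GTPases of the defence against intracellular microbes, changed by 1.28 and 1.18, 1.53 and 1.17, and 0.96 and 1.29. The stretches lie at chr12:41330386-41330465 (Oas1a, plus strand), chr12:47383292-47383371 (Oasl2, minus), chr2:233910908-233910987 (Gbp5, plus), chr10:42874909-42874988 (Igtp, plus) and chr10:33742579-33742658 (Irgm, minus).
Oas1a: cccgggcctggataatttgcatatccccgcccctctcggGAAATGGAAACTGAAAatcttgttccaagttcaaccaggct
Oasl2: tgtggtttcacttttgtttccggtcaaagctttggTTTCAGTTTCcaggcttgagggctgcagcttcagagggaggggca
Gbp5: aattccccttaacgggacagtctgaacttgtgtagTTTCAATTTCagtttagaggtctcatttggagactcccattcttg
Igtp: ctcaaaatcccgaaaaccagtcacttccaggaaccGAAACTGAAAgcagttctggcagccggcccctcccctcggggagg
Irgm: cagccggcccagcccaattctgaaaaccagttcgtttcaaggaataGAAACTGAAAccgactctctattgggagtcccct
In Oas1a a pair of matches overlaps. Of the interferon list, 24 genes had a promoter in the table, and 18 (75%) held the motif on either strand, against 2.81% of all 9597 promoters.

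Across the classes, the same motif was in 25 of 239 promoters of lasting genes that rose (10.5%), in 2 of 182 of fading genes that rose (1.1%) and in 0 of 25 of growing genes. The other motifs searched on either strand were GAGGAAG, the core bound by ETS factors such as the macrophage factor PU.1, TGANTCA (AP-1), TTCNNNGAA (STAT), TTTGAA (a cell cycle element), GAANNTTC (heat shock) and TCACNCCAC (a sterol element). GAGGAAG was in 25.5% of lasting, 28.0% of growing and 8.79% of fading genes that rose, beside 13.6% of all promoters. TGANTCA was in 12.6% of lasting and 7.69% of fading genes that rose, beside 5.23% of all, and TTCNNNGAA in 10.0% and 8.24%, beside 6.54%. Of 100 promoters of fading genes that fell, 11 held TGANTCA, 10 held TTCNNNGAA and 17 held GAGGAAG. High shares of these motifs were thus not confined to genes that rose. In the cell cycle list 13 of 26 promoters (50.0%) held TTTGAA, beside 11.4% of all. In the cholesterol synthesis list 0 of 18 held TCACNCCAC, beside 1.16% of all. These are counts of letters in a window and were not tested.

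Sterol synthesis supplied 4 of the 9 genes that were lasting and lowered. Of 25 cholesterol synthesis and SREBP genes, 0 rose, 5 fell at day 1 and 11 at day 14, beside 0.365% of all genes that fell at day 14, and the medians were -0.22 and -0.61. Of the differences of this list, 20 were positive, with a median of 0.27. There was 1 called difference, a higher one in a growing gene that fell, beside 2.24% called higher over all genes tested. Fdft1, the enzyme that makes squalene, had 84.1, 76.5, 100 and 77.9 CPM in TBI day 1, 122 and 106 CPM in Sham day 1, 110 to 121 CPM in Sham day 14 and 63.2 to 81.5 CPM in TBI day 14. TBI lay below sham with no overlap at each day. It changed by -0.43 ± 0.14 and -0.70 ± 0.11, with an interval of the difference from -0.11 to 0.66, and its day 1 call was lost when any 1 of 11 libraries was left out (adjusted p up to 0.19). Srebf2, the transcription factor of the pathway, changed by -0.58 ± 0.13 and -0.42 ± 0.11. Its day 1 change was not called without Sham day 1 replicate 2 (adjusted p = 0.125), nor its day 14 change when any 1 of 10 libraries was left out (adjusted p 0.0562 to 0.152). Without the 3 libraries 3 genes of the list fell at day 1 and 5 at day 14. Of 20 cholesterol efflux genes, 3 rose at day 14 and 1 difference was lower. The neurokinin receptor Tacr3, lowered by 1.16 and 1.39 on the log2 scale, was also lasting, and its day 1 change was not called without Sham day 1 replicate 2 (adjusted p = 0.396).

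Among the 35 growing genes that rose were genes of immune and phagocytic cells, 3 of them on the homeostatic microglia list. Cd4, a coreceptor that rat microglia and macrophages carry as well as T cells, had 43.2, 24.2, 32.5 and 68.5 CPM in TBI day 14, 5.57 to 7.21 CPM in Sham day 14, 3.73 to 5.64 CPM in TBI day 1 and 9.48 and 3.46 CPM in Sham day 1. TBI day 14 lay above the other 10 libraries, and TBI day 1 lay between its shams. It changed by -0.52 ± 0.39 and 2.69 ± 0.33, a difference of -3.21 ± 0.50 (edgeR, adjusted p = 0.00381). Igf1, a growth factor, had 6.62 to 22.3 CPM in TBI day 14 and 1.90 to 4.92 CPM elsewhere, and differed by -2.65 ± 0.56 (edgeR, adjusted p = 0.0192). Both calls held with each library left out in turn and without the 3 libraries. The complement protein C3 had 244 to 423 CPM in TBI day 14, 57.3 to 89.4 CPM in TBI day 1 and 31.2 to 55.4 CPM in the shams. It changed by 1.13 ± 0.26 and 2.79 ± 0.21, a difference of -1.67 ± 0.31 (edgeR, adjusted p = 0.00916), and the day 1 rise was not called without Sham day 1 replicate 2 (adjusted p = 0.109).

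Cd74, the invariant chain of MHC class II, rose at both days, by 2.49 ± 0.33 and 4.23 ± 0.27, and its difference was not called without Sham day 1 replicate 1 (adjusted p = 0.0844). The receptor gene Fcrl2 (0.67 and 3.67) was in the same position (adjusted p = 0.0529), and the coagulation factor gene F10 (1.89 and 4.82) lost its call when any 1 of 10 libraries was left out (adjusted p 0.0563 to 0.232). Of 27 lysosomal genes, 6 rose at day 1 and 10 at day 14, and 22 differences were negative, of which 2 were called. Of 12 lymphocyte genes, 4 rose at day 1, 3 at day 14 and 1 difference was lower.

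**Figure D3:**
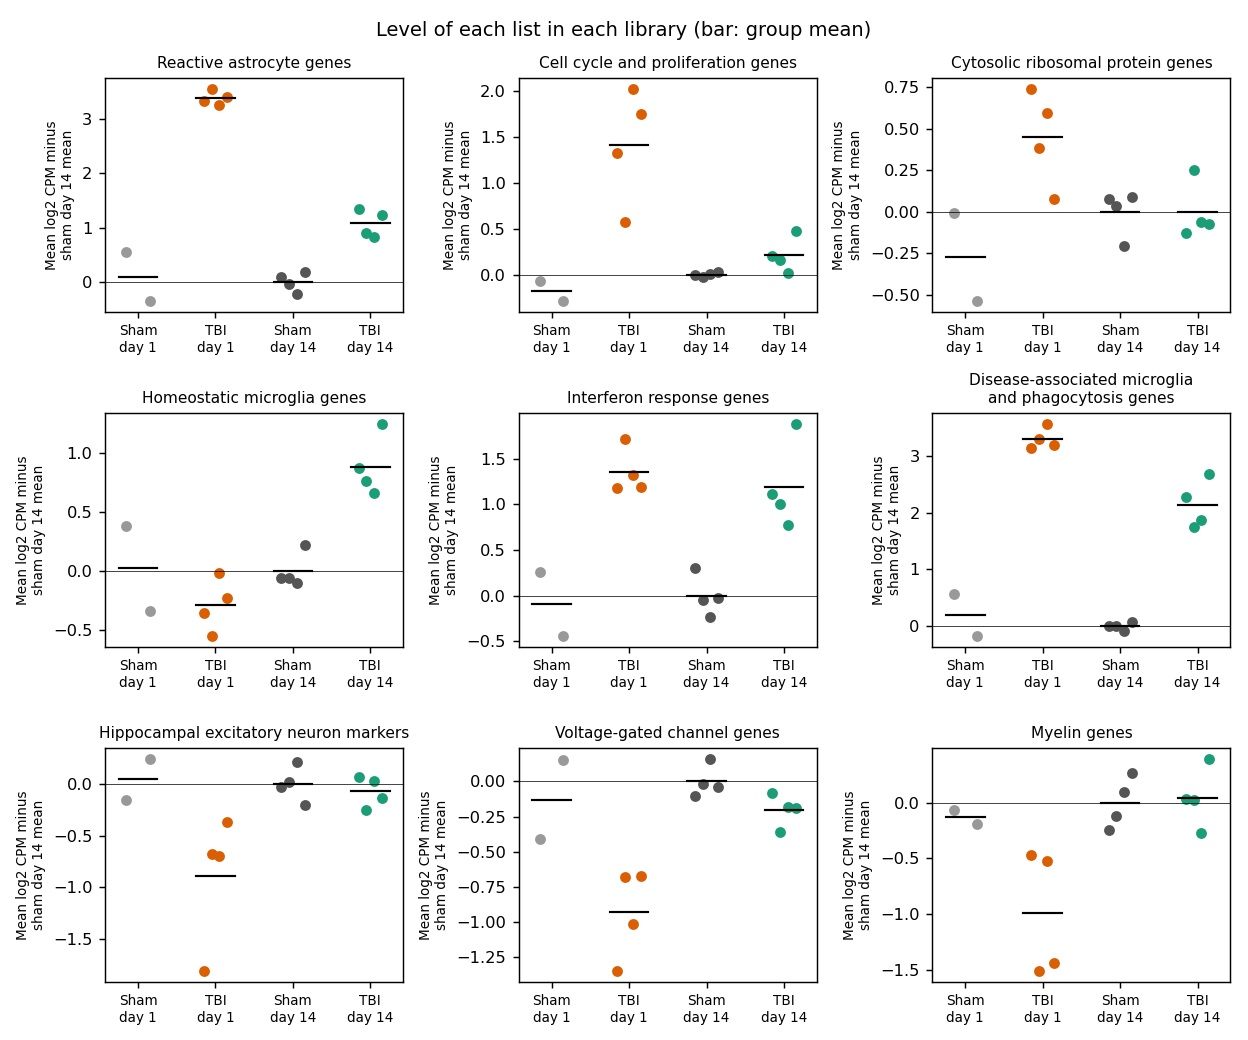
Mean log2 CPM of the tested genes of 9 lists in each library, set against the mean of Sham day 14 (bars are group means). Reactive astrocyte genes stood at 3.26 to 3.55 in TBI day 1 and 0.83 to 1.34 in TBI day 14, homeostatic microglia genes at -0.55 to -0.01 and 0.66 to 1.24, and the neuronal and myelin lists were lowest in TBI day 1.

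Of the 6 reversing genes, 3 were genes of resting microglia. Of 19 homeostatic microglia genes, 6 fell and 2 rose at day 1, 10 rose at day 14, and 9 had a lower difference and 0 a higher one. The medians were -0.23 and 0.89, and the median difference of -1.24 stayed between -1.44 and -0.89 over 22 alternative settings. P2ry12, P2ry13 and Rgs10 were called down and then up, Tmem119, Selplg and Ltc4s fell at day 1 and were not called at day 14, and Csf1r, Sall1 and Slc2a5 were called at day 14 alone. Tmem119, Selplg, Ltc4s and Slc2a5 were named after their values were seen. Tmem119, a membrane protein used to tell microglia from infiltrating macrophages, changed by -1.9 and 0.37. Without the 3 libraries 4 genes of the list had a lower difference, and the list median was -1.16.

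P2ry12, the receptor by which microglial processes sense ADP, had 29.5 and 20.0 CPM in Sham day 1, 11.7, 10.2, 13.7 and 18.1 CPM in TBI day 1, 13.7 to 18.6 CPM in Sham day 14 and 45.6, 37.4, 28.5 and 44.2 CPM in TBI day 14. TBI lay below its shams at day 1 and above them at day 14, with no overlap at either day. It changed by -0.88 ± 0.24 and 1.25 ± 0.20, a difference of -2.14 ± 0.31 (edgeR, adjusted p = 0.00246). The difference was called with each library left out, but the fall at day 1 was not called without Sham day 1 replicate 1 (-0.58, adjusted p = 0.159). Its neighbour P2ry13, also an ADP receptor, had 6.20 and 3.60 CPM in Sham day 1, 2.13 to 2.69 CPM in TBI day 1, 3.28 to 4.19 CPM in Sham day 14 and 6.15 to 10.9 CPM in TBI day 14. It differed by -2.13 ± 0.36, and its fall at day 1 was lost without the same library (-0.56, adjusted p = 0.23). P2ry13 lies within Med12l, which differed by -0.70 (edgeR, adjusted p = 0.457).

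Rgs10, a regulator of G-protein signals in microglia, had 80.7 and 118 CPM in Sham day 1, 36.7 to 63.7 CPM in TBI day 1, 57.1 to 68.2 CPM in Sham day 14 and 87.7 to 106 CPM in TBI day 14. TBI and sham did not overlap at either day, though Sham day 1 was itself 0.68 higher (log2) than Sham day 14. It changed by -1.03 ± 0.19 and 0.63 ± 0.16, a difference of -1.66 ± 0.24. The fall was not called without Sham day 1 replicate 2 (adjusted p = 0.0592) nor the rise when any 1 of 7 day 14 libraries was left out (adjusted p 0.0579 to 0.101).

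The other reversing genes were not on the microglia list. Padi2, which converts arginine in proteins to citrulline and is strong in oligodendrocytes, had 108 and 110 CPM in Sham day 1, 42.9, 25.2, 51.0 and 38.9 CPM in TBI day 1, 90.4 to 120 CPM in Sham day 14 and 155 to 217 CPM in TBI day 14. The shams of both days overlapped, with TBI below them at day 1 and above them at day 14. It changed by -1.46 ± 0.21 and 0.74 ± 0.18, a difference of -2.20 ± 0.28 (edgeR, adjusted p = 0.00105), and the rise was not called when any 1 of 6 day 14 libraries was left out (adjusted p 0.0504 to 0.123). Mlxipl, a transcription factor that responds to glucose, had 29.0 and 42.7 CPM in Sham day 1, 16.3 to 25.2 CPM in TBI day 1, 29.5 to 41.9 CPM in Sham day 14 and 55.6 to 103 CPM in TBI day 14. It differed by -1.96 ± 0.32, and the fall at day 1 was not called without Sham day 1 replicate 2 (-0.48, adjusted p = 0.413) or TBI day 1 replicate 1 or 2 (adjusted p 0.0677 and 0.0818). Without the 3 libraries the differences of P2ry12, P2ry13, Rgs10, Padi2 and Mlxipl were all still called (-2.07, -2.01, -1.93, -2.37 and -2.50), but of these Mlxipl alone was still called at both days. The fall at day 1 was not called in P2ry12 (-0.59, adjusted p = 0.134) and P2ry13 (-0.57, adjusted p = 0.194), nor the rise at day 14 in Rgs10 (0.64, adjusted p = 0.0732) and Padi2 (0.88, adjusted p = 0.0653). Csf1r, the receptor on which microglia depend to survive, changed by 0.43 and 1.60, and its difference of -1.17 was not called when any 1 of 8 libraries was left out (adjusted p 0.0539 to 0.151).

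**Figure D4:**
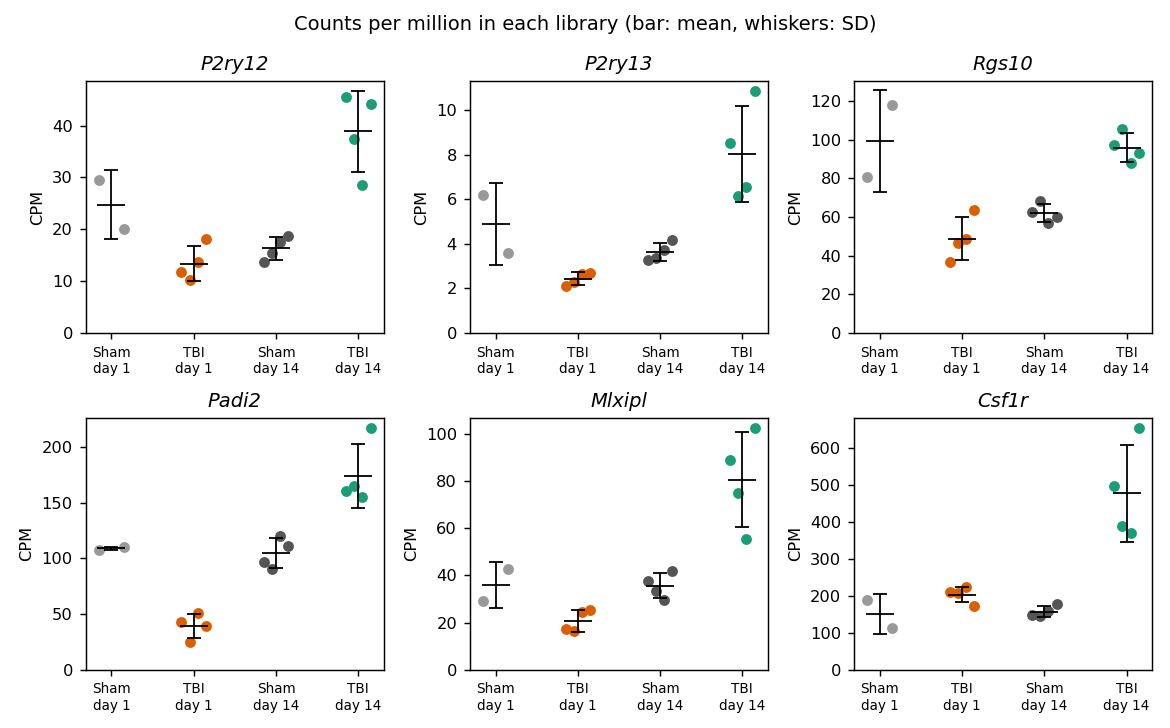
CPM in each library (points) with the mean and SD of each group for 5 reversing genes and Csf1r, on axes that start at 0. In the 5 reversing genes TBI lies below sham at day 1 and above it at day 14, as in P2ry12 with 10.2 to 18.1 CPM against 20.0 and 29.5 CPM, then 28.5 to 45.6 CPM against 13.7 to 18.6 CPM.

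Many neuronal genes fell at day 1, and few of their differences between days passed the test. Called differences were few over all genes tested as well, at 2.24% higher and 1.44% lower. Of all genes tested, 7.93% fell at day 1 and 0.365% at day 14. Of 57 voltage-gated channel genes, 23 fell at day 1 and 2 at day 14, 0 rose, 0 differences were called, and 50 of the 57 differences were negative, with medians of -0.81 and -0.20. Of 25 glutamate receptor genes, 11 fell at day 1 and 1 at day 14 (-0.62 and -0.23, 0 called differences). Of 40 presynaptic genes, 15 fell at day 1 and 0 at day 14 (-0.60 and -0.21, 0 called). Of 34 postsynaptic genes, 12 fell at day 1 and 0 at day 14 (-0.69 and -0.08, 1 called). Of 16 excitatory neuron markers, 8 fell at day 1 and 1 at day 14 (-1.0 and -0.09, 0 called). Their level in TBI day 1 ran from -1.81 to -0.37 against Sham day 14, a wide spread among the 4 rats. Grik4, a kainate receptor of the CA3 field, had 36.9 to 73.9 CPM in TBI day 1, 114 and 140 CPM in Sham day 1, 196 to 218 CPM in Sham day 14 and 167 to 178 CPM in TBI day 14. It changed by -1.19 ± 0.19 and -0.29 ± 0.16, and the difference of -0.90 ± 0.25 was not called (edgeR, adjusted p = 0.063).

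Inhibitory signalling held the neuronal exceptions. Of 23 genes of GABA synthesis, transport and reception, 13 fell at day 1 and 0 at day 14 (-0.77 and -0.18), and 2 had a lower difference, Gabrd and the GABA transporter gene Slc6a11, whose call was lost when any 1 of 9 libraries was left out (adjusted p 0.0533 to 0.108). Gabrd, the delta subunit of the receptors outside synapses, had 8.97, 12.4, 10.2 and 8.10 CPM in TBI day 1, 24.6 and 34.7 CPM in Sham day 1, 31.9 to 51.5 CPM in Sham day 14 and 31.7 to 54.1 CPM in TBI day 14. TBI day 1 lay below all others, and TBI day 14 overlapped its shams. It changed by -1.58 ± 0.23 and 0.03 ± 0.19, a difference of -1.60 ± 0.30 (edgeR, adjusted p = 0.0101; 0.0523 without Sham day 1 replicate 2). Hapln1, which links proteins of the perineuronal matrix, changed by -1.78 ± 0.22 and 0.02 ± 0.18, and its difference of -1.80 ± 0.29 was called with each library left out. Its shams moved too, with 37.4 and 46.0 CPM in Sham day 1 and 19.9 to 23.3 CPM in Sham day 14. Sham day 1 was thus 0.97 higher (log2) than Sham day 14, while TBI day 1 was 0.83 lower than TBI day 14. Neuropeptide genes had 2 of 29 raised and 7 lowered at day 1, beside 11.2% raised and 7.93% lowered over all genes tested. The raised pair, Trh and Gal, encode peptides released by neurons and faded, and Gal lost its call when any 1 of 11 libraries was left out (adjusted p 0.0593 to 0.18). Trh had 22.6, 35.3, 6.00 and 57.6 CPM in TBI day 1 and 1.38 to 5.80 CPM elsewhere, and the difference was not called when any 1 of 4 sham libraries was left out (adjusted p 0.0519 to 0.11). Of 14 neurogenesis genes, 3 rose and 5 fell at day 1, 0 were called at day 14, and 2 differences were higher and 2 lower. Of the 2 lower ones, Igfbpl1 was highest in the 3 libraries high in choroid plexus genes (9.86, 5.86 and 12.8 CPM). In the other libraries it had 0.726 to 3.81 CPM.

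Of 18 myelin genes, 7 fell at day 1 and 0 at day 14, with medians of -0.71 and 0.06. Of their differences 17 were negative and 1 was called, that of Mal, a proteolipid of myelin membranes. Mal had 59.6 to 172 CPM in TBI day 1 and 233 to 443 CPM in the other 10 libraries, with no overlap, and its difference of -1.67 ± 0.41 was lost when any 1 of 11 libraries was left out (adjusted p 0.0502 to 0.0822). Oligodendrocyte lineage genes had 2 of 15 lowered at day 1 and 1 lower difference, that of Enpp6, a gene of newly formed oligodendrocytes. Homeostatic astrocyte genes had 2 of 22 raised and 4 lowered at day 1, 0 called at day 14 and 1 lower difference. Beside both lists, the shares over all genes tested were 11.2% raised and 7.93% lowered at day 1.

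The shams of the 2 days differed as well: 1450 genes (11.3% of those tested) had their higher level in the day 1 shams and 1014 (7.88%) in those of day 14. Of 20 glucocorticoid-responsive genes, 9 had a higher level in the day 1 shams than in those of day 14, and of 15 circadian clock genes 5 did. Differences between days were called in 2 and 0 of them, with median differences of 0.03 and -0.11. Il33, an alarm cytokine, shows how a moving sham enters the contrast: it had 60.2 and 51.9 CPM in Sham day 1, 36.9 to 49.4 CPM in TBI day 1, 26.6 to 32.5 CPM in Sham day 14 and 34.8 to 50.5 CPM in TBI day 14. The TBI groups overlapped, the shams did not, and neither day's change was called, while the difference of -0.86 ± 0.21 was (edgeR, adjusted p = 0.0366), though it was lost when any 1 of 8 libraries was left out (adjusted p 0.0514 to 0.0901).

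Summed monocyte and macrophage markers were higher in TBI day 1 than in all other libraries, while neutrophil and red blood cell sums of TBI day 1 overlapped those of another group. The summed level of 16 monocyte and macrophage markers was 1133 to 1314 CPM in TBI day 1, 339.9 to 497 CPM in TBI day 14 and 252.5 to 355.4 CPM in the shams. Of these 16, 10 rose at day 1, 1 at day 14 and 3 had a higher difference, Fn1, which is also a matrix gene, Cd36 and Lyve1. Fn1 alone made up 381 to 634 CPM of the summed level in TBI day 1. Neutrophil markers summed to 37.0 to 84.0 CPM in TBI day 1, 34.1 to 47.6 CPM in TBI day 14 and 7.56 to 26.5 CPM in the shams. Of the 8 tested, 4 rose at day 1 and 1 at day 14, and 1 difference was higher. Red blood cell markers summed to 450.9 to 1113 CPM in TBI day 1, 272.9 to 548.2 CPM in Sham day 1 and 97.0 to 253 CPM in the groups of day 14, with 0 of 7 called. The part of these cells in the acute and phagocytic changes was not tested. Meningeal and ependymal markers had 0 called differences of 15 and 11 with all libraries, and 3 and 0 without the 3.

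The largest negative differences belonged to choroid plexus genes and rested on the 3 libraries. Of 23 choroid plexus markers tested, 18 fell at day 1, 1 rose at day 14, and 18 had a lower difference, each beyond -3 on the log2 scale. The summed level of the list was 12490 CPM in Sham day 1 replicate 1 and 330.3 CPM in replicate 2, 191.8 to 376.6 CPM in TBI day 1, 291 to 450.7 CPM in Sham day 14 and 338.7 to 9745 CPM in TBI day 14. Ttr had 4.31, 3.77, 8.07 and 3.94 CPM in TBI day 1, and in TBI day 14 it had 11.3, 1407, 7036 and 4.86 CPM. Within both groups that hold such libraries the others lay at the level of the remaining groups. Its changes of -9.56 and 7.73 place it among the reversing genes, with a difference of -17.29. Without the 3 libraries that difference was 0.91 (edgeR, adjusted p = 0.429). Tmem27, Sostdc1, Slco1a5, Mfrp, Tmem72, Cldn2 and Kl, the other genes with the largest negative differences, ranged from -16.28 to -11.95. Of the 18 called markers, 16 could be fitted without the 3 libraries, 9 kept the sign, 1 was called and the median went from -9.83 to -0.05. Of the other 168 genes with a lower difference, 161 could be fitted, 157 kept the sign, 50 were called, and the median went from -1.48 to -1.26. All 288 higher differences kept their sign, and their median went from 1.82 to 2.02, though a kept sign is not a kept call. With the mean level of the choroid plexus markers as a covariate, 94 (32.6%) of the 288 higher differences were still called. Of the 186 lower ones, 40 (21.5%) were.

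**Figure D5:**
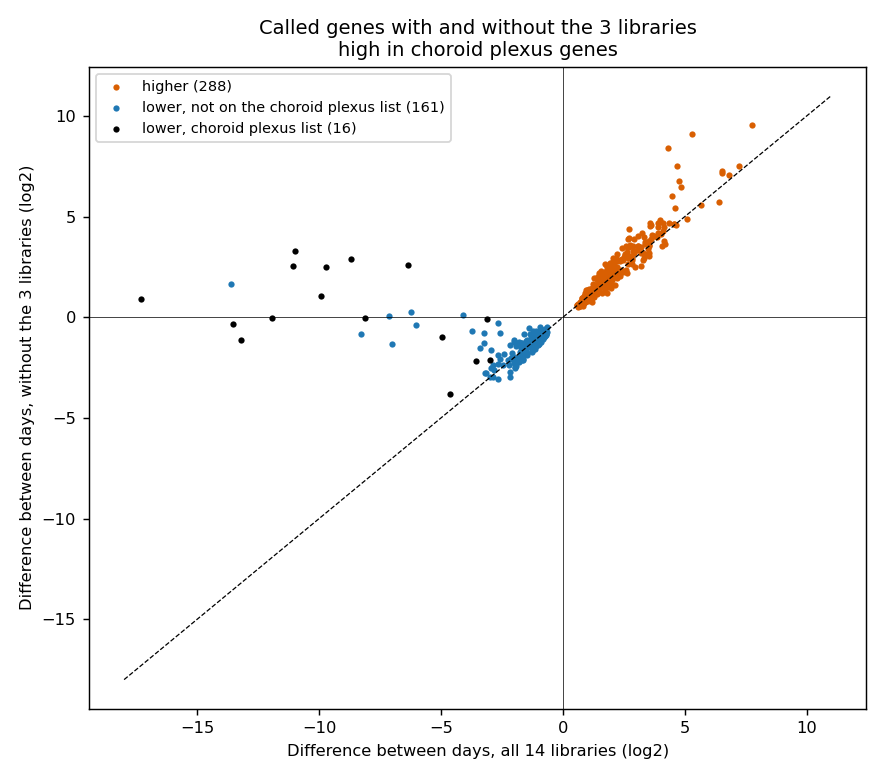
Difference between days (log2) of the called genes with all 14 libraries (x axis) and without the 3 libraries high in choroid plexus genes (y axis), with the dashed line where both are equal. The 288 higher genes follow the line, as do most of the other lower genes, while the choroid plexus genes, with a median of -9.83 on the x axis, scatter around 0 on the y axis.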

How the data were processed

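RNA-seq of 14 of the 22 samples was used. The H3K4me3 ChIP-seq samples were not used here. Per the study's methods, stranded mRNA libraries were sequenced single-end, aligned to rn5 with STAR 2.4.2a and counted on UCSC genes with featureCounts 1.5.0, and the authors deposited whole-number counts without normalization. The strand setting of the counting is not given in the sources used here, and 25 gene names look like dates. Depth was 15065540 to 23743703 counts per library, and the lowest chi-squared per degree of freedom between replicates was 12.8, so precision rests on the spread between rats. The labels number the samples of a group and name no batch.

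Counts were fitted with edgeR 4.0.16 under R 4.3.3 (TMM normalization, default filter by group, quasi-likelihood, 1 mean per group, all 14 samples). The contrast was TBI minus sham at day 1 minus the same at day 14, two-sided, with Benjamini-Hochberg adjustment over 12875 genes and a threshold of 0.05. SE was the absolute log2 fold change over the square root of F, and log2 CPM used a prior count of 2. The scripts were tested on simulated data. The genes to name were the 8 largest differences in each direction (mean log2 CPM of at least 1, same sign in all 14 fits that leave out 1 sample), the reversing genes, 6 lasting and 6 growing genes, up to 4 members of each of 45 lists and genes named in the study's text. Some genes that this rule covers are not reported here. Members and lists were chosen with earlier results of these data known. Alternatives were limma-voom (limma 3.58.1), DESeq2 1.42.0, other factors and filters, a replicate block, a choroid plexus covariate, leaving out libraries, a threshold of 0.01 and pooled shams. Same-numbered libraries of different groups correlated at -0.35 to 0.24 in their deviations, with 5 of 18 pairs over 0.1, so the numbers were not taken to pair rats. Promoters came from RefSeq GRCr8. Gene positions in that build served only to find overlapping genes. List counts and medians were not tested.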

Additional observations from a re-analysis of the deposited data

Results flagged for a closer look

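Among 232 groups of 4 libraries, 1 library stood apart in 11 by the Dixon criterion, which chance meets in about 1 in 20 groups. As log2 CPM these were RGD1565374 in Sham day 14 replicate 1 (-3.26), Mfrp in TBI day 1 replicate 1 (-2.27), Kcnn4 in Sham day 14 replicate 3 (-1.05) and TBI day 14 replicate 4 (3.84), and Igf1 in Sham day 14 replicate 3 (1.70). As list levels against Sham day 14 they were homeostatic microglia genes in Sham day 14 replicate 4 (0.22), ribosomal protein genes in TBI day 14 replicate 2 (0.25), heat shock genes in TBI day 1 replicate 1 (0.15), mitochondrial genes in TBI day 1 replicate 3 (0.23), circadian genes in Sham day 14 replicate 1 (0.10) and monocyte markers in Sham day 14 replicate 4 (0.25).

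The injury effect differed between days by the edgeR test of the difference itself in the genes that follow, given on the log2 scale. It was larger at day 1 in Serpina3n (6.82), RGD1565374 (6.54), Ccl2 (6.41), Cyr61 (5.66), Il1b (5.10), Clcf1 (4.85) and Timp1 (4.62). Choroid plexus genes or genes high in the same 3 libraries had the lowest values: Ttr (-17.29), Tmem27 (-16.28), Sostdc1 (-15.75), Slco1a5 (-13.75), Mfrp (-13.63), Tmem72 (-13.55), Cldn2 (-13.19) and Kl (-11.95). Genes that reversed were Padi2 (-2.20), P2ry12 (-2.14), P2ry13 (-2.13), Mlxipl (-1.96) and Rgs10 (-1.66). Growing genes were Cd4 (-3.21), Fcrl2 (-3.0), F10 (-2.93), Igf1 (-2.65), Cd74 (-1.74) and C3 (-1.67).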

How the results depend on the processing

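Every one of the 288 higher and 186 lower differences kept its sign under limma-voom, DESeq2, median-of-ratios factors and the replicate block, and the counts of calls moved. Higher and lower differences numbered 178 and 100 with limma-voom, 600 and 453 with DESeq2, 108 and 50 with the choroid plexus covariate, 189 and 87 without the 3 libraries, 89 and 29 at a threshold of 0.01, and 2259 and 1770 with all 6 shams as 1 group, which turns the contrast into TBI day 1 against TBI day 14. Leaving out 1 library gave 126 to 430 higher and 78 to 300 lower. Fading genes that rose numbered 471 (DESeq2), 91 (covariate), 132 (without the 3 libraries) and 73 (threshold of 0.01), and 93 to 332 with 1 library out. Fading genes that fell numbered 76 (limma-voom), 329, 38, 71 and 18 in the settings after it, and 62 to 243. Partly fading genes numbered 22 (limma-voom), 87 (DESeq2), 13 (covariate) and 16 (threshold of 0.01), and 29 to 90. Lasting genes that rose numbered 206 at 0.01 and 212 to 359 with 1 library out. Those that fell numbered 29 (DESeq2), 16 (replicate block), 4 (covariate), 2 (without the 3 libraries), 2 (threshold of 0.01) and 4 to 16.

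Growing genes that rose numbered 17 (limma-voom), 64 (DESeq2), 8 (covariate), 11 (without the 3 libraries), 9 (threshold of 0.01) and 10 to 61. Those that fell numbered 1 (limma-voom), 16 (DESeq2), 3 (at least 10 counts in every sample), 3 (replicate block), 1 (covariate), 1 (without the 3 libraries), 0 (threshold of 0.01) and 1 to 11. Genes down and then up numbered 23 (DESeq2), 2 (without the 3 libraries), 0 (threshold of 0.01) and 3 to 35. Genes up and then down numbered 1 (limma-voom), 4 (DESeq2), 3 (covariate), 1 (without the 3 libraries) and 0 to 2. The single libraries with the most effect were Sham day 1 replicate 2 (126 higher differences, 93 fading up, 61 growing up and 35 down and then up without it) and replicate 1 (430 higher, 90 partly fading, 10 growing up and 3 down and then up), Sham day 14 replicate 2 (172 higher, 78 lower, 62 fading down), replicate 1 (182 and 99) and replicate 4 (171 and 95), TBI day 1 replicate 4 (300 lower, 243 fading down), and TBI day 14 replicates 3 (179 higher), 1 (189 and 123), 4 (117 lower) and 2 (122 lower). The cause was not tested, other than that leaving out libraries gives fewer samples.

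The replicate block gave 274 higher and 199 lower differences, with 75.3% and 72.6% of the original calls among them. With the choroid plexus covariate these shares were 32.6% and 21.5%. The calls in an alternative were not always a subset of the original ones. Some differences of named genes changed sign: Kcnn4 (-0.14 to 2.06, the lowest without Sham day 1 replicate 2), Mfrp (1.63 without the 3 libraries), Nlrp3 (-0.48 to 0.0239, positive without Sham day 1 replicate 1 or TBI day 14 replicate 4), RT1-Db1 (0.24 without the 3 libraries, -1.75 to 0.22 with 1 library out, the highest without Sham day 1 replicate 1), Slc17a6 (-2.19 to 0.37, the highest without Sham day 1 replicate 2), Tacr3 (-0.0873 to 0.65, negative without Sham day 1 replicate 1 or TBI day 1 replicate 3) and Ttr (0.41 with the covariate, 0.91 without the 3 libraries). Over all named genes and settings, 3622 values kept direction and call, 363 lost a call, 146 gained one and 11 changed sign.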
